A study of Mus musculus with 6 samples.

Results

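Hsd3b5, Ugt2b38, Hsd17b6, Mup3, Clec2h, Hao2 and Phlda1 were followed as a set of 7 liver genes that read far lower in PiZ mouse liver than in wild-type liver. The members were chosen by their low PiZ readings in an earlier analysis of these same 6 arrays, and every probe set that the platform's annotation assigned to exactly 1 of them was taken. This gave 11 of the 20380 single-gene probe sets, and 7 of the 12393 genes so measured. The difference between PiZ and wild-type liver was thus used to pick the genes, and it is described below without a test.

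Total liver RNA was measured on 1-colour Affymetrix arrays, with 1 array for each of 3 wild-type and 3 PiZ mice, all 6 weeks old and of strain C57BL/6. PiZ mice carry a transgene for the Z variant of human alpha-1 antitrypsin, a secreted protease inhibitor that in this form misfolds and is retained in the endoplasmic reticulum of hepatocytes. The mouse's own antitrypsin genes remain in this model, and the labels give neither the promoter of the transgene nor the sex of the animals. Values are log2 intensities after RMA, a procedure that corrects background, gives all arrays the same distribution and summarises the probes of each probe set, so a level is relative to its array. The number of arrays limits the precision.

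In mouse liver, the pituitary hormone growth hormone is released in a male or a female rhythm. It acts through its receptor Ghr, the kinase Jak2 and the transcription factor Stat5b, and the rhythm sets many differences in expression between male and female hepatocytes. Hsd3b5, a member of the 3-beta-hydroxysteroid dehydrogenase family that works as a ketosteroid reductase, Ugt2b38, a UDP-glucuronosyltransferase, and Mup3, a major urinary protein that carries pheromones, are genes of the male pattern. Hsd17b6 encodes a steroid and retinol dehydrogenase. Hao2 encodes a peroxisomal oxidase of 2-hydroxy acids, Clec2h a C-type lectin-like protein of the natural killer gene complex, and Phlda1 a protein with a pleckstrin homology-like domain linked to cell death and growth control. Phlda1 is not a gene restricted to hepatocytes, so the set is not one of hepatocyte-specific genes alone.

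Promoter sequence, from RefSeq on build GRCm38.p6, was at hand for 6 of the 7 members, all but Phlda1. The 250 bases before the annotated start are shown for the members with the largest falls, Hsd3b5 and Ugt2b38, and for Hao2 and Mup3, whose windows held the most motif matches. Capitals mark matches to the motifs named below, on either strand.
Hsd3b5 (chr3:98645535-98645784, minus strand): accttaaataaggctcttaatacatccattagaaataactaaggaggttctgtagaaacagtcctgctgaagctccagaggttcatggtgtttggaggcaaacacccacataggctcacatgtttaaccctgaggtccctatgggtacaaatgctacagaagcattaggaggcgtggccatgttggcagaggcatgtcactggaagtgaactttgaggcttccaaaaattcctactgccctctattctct
Ugt2b38 (chr5:87424204-87424453, minus strand): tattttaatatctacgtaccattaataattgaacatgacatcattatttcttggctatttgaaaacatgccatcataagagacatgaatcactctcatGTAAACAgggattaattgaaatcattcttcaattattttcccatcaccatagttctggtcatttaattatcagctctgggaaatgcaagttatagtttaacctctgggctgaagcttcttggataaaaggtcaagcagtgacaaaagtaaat
Hao2 (chr3:98893231-98893480, minus strand): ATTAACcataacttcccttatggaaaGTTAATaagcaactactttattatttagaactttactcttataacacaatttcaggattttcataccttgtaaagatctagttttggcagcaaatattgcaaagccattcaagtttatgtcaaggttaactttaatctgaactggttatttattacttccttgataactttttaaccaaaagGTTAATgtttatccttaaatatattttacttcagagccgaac
Mup3 (chr4:62087318-62087567, minus strand): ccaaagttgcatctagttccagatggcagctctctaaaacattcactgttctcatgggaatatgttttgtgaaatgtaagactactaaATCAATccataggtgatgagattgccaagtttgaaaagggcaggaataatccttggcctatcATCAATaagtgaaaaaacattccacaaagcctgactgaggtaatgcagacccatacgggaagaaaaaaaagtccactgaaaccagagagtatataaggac
The 8 motifs searched were TTCNNNGAA (the palindrome bound by STAT5), TTGCNNAA (C/EBP), ATCAAT (ONECUT), TGTTTAC (FOXA), GTTAAT (a half-site of HNF1), CAAAGTCCA (HNF4A), TGATGNAAT (the composite element of ATF4 and CHOP) and TATAAA (on the coding strand only). None of the motifs overlapped another in the windows shown. The STAT5 palindrome was found in 0 of 6 member windows and in 7.04% of 32536 distinct promoter windows of the same length. The C/EBP, HNF4A, ATF4-CHOP and TATA strings were also found in 0 of 6, against 9.57%, 0.387%, 0.814% and 7.55% of all windows. The search took exact letters, so like strings, such as the tatataag near the start of Mup3, did not count. With 6 windows and shares this low, finding 0 is unremarkable and nothing is read from it. Matches were present in 3 members. Ugt2b38 had 1 FOXA match, starting 152 bases before the start (3.17% of all windows hold one), and Mup3 had 2 ONECUT matches, starting at 162 and 100 bases (6.6%). Hao2 had 3 HNF1 half-sites, starting at 250, 224 and 42 bases (6.47%). Hsd3b5, Hsd17b6 and Clec2h had no match to these letters in the window, so no motif of the search was common to the members.

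The arrays differed in ways that touch these values. The log2 gap between the 3′ and the 5′ control probe sets of Gapdh, which widens when RNA is shortened, ran from 1.49 to 2.06 across wild-type arrays. It was 1.99, 4.39 and 4.01 for PiZ replicates 1, 2 and 3. PiZ replicate 1 therefore lay within the wild-type range of this measure, and the other 2 PiZ arrays did not. The files held no detection calls. The lower quartile of all probe sets, 4.27 to 4.46 across arrays, is used below to show where a level is dim. Hepatocyte markers were bright in both groups, with the summed level of 13 genes at 17.95 to 17.97 (log2) in wild-type and 17.67 to 17.86 in PiZ. Of these 13, Apob (-0.81) and Fgb (-0.83) were lower and Tat (1.12) was higher by limma at an adjusted p below 0.05, as were 23.6% of all genes in either direction, and albumin (Alb, 14.94 and 14.75) and Ttr (14.84 and 14.83) did not pass. The list's median difference was -0.25 against 0.08 over all genes. All PiZ arrays lay below all wild-type arrays in 9 of the 13 and above them in 2, against 19.9% and 24.9% of all genes. Alb and Ttr read close to the highest values on the arrays (14.93 to 14.98), so the summed level mostly reflects such bright genes. Another Ttr probe set differed by -0.59. Of 7 Kupffer cell markers 3 rose (Marco 0.97, Cd5l 0.67 and Clec4f 0.64), and their summed level was 12.73 to 12.77 in wild-type and 13.02 to 13.29 in PiZ. No stellate, endothelial, cholangiocyte or lymphocyte marker passed the test, and of 5 erythroid markers Klf1 (-1.25) did. The part of these cell types in the members' values was not tested. In whole liver RNA, fewer cells of a type and less RNA per cell cannot be told apart.

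Hsd3b5 and Ugt2b38 had little of their wild-type signal in any PiZ liver. Hsd3b5 read 12.60, 12.41 and 12.29 in wild-type replicates 1, 2 and 3 and 7.82, 7.17 and 7.22 in PiZ replicates 1, 2 and 3. The groups stood 4.47 apart at their closest arrays, against a wild-type range of 0.31. The means were 12.43 ± 0.16 (SD, n = 3) and 7.40 ± 0.36, a difference of -5.03 or 32.6-fold, and it was the largest fall among all 12393 genes. As a share of the wild-type mean, PiZ replicates 1, 2 and 3 had 4.09%, 2.61% and 2.70% left. PiZ replicate 1, with a Gapdh gap like that of wild-type, had slightly more signal left than the others.

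Ugt2b38, whose product attaches glucuronic acid to steroids and other lipophilic compounds, was second in size of fall. It read 11.26, 11.33 and 11.13 in wild-type and 6.90, 6.99 and 6.71 in PiZ. All PiZ arrays were low to nearly the same extent, with 4.94%, 5.27% and 4.34% of the wild-type mean left. The means were 11.24 ± 0.10 and 6.87 ± 0.14, a difference of -4.37 or 20.7-fold, and the groups stood 4.14 apart. Both genes were still read above the lower quartile of the arrays in every PiZ liver. With each array's 10th percentile intensity subtracted as a floor, the remaining levels were 3.89%, 2.39% and 2.48% for Hsd3b5 and 4.50%, 4.80% and 3.86% for Ugt2b38.

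**Figure D1:**
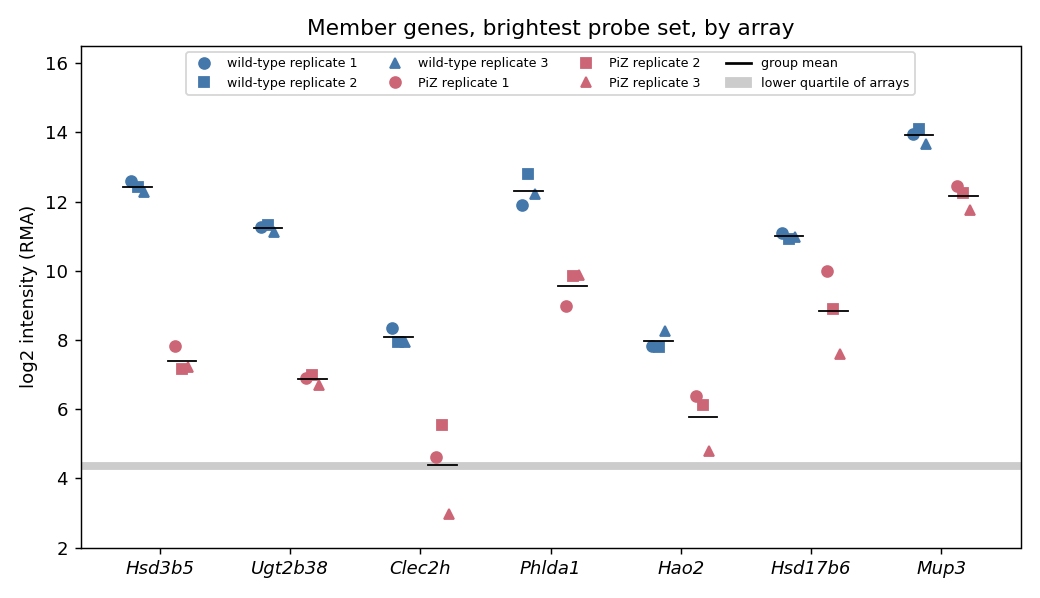
Log2 intensity (RMA) of the brightest probe set of each of the 7 genes in 3 wild-type arrays (blue) and 3 PiZ arrays (red), with group means as black lines and the range of the arrays' lower quartiles as a grey band. In each gene all PiZ points lie below all wild-type points, and the gap is widest for Hsd3b5 (4.47) and Ugt2b38 (4.14) and smallest for Hsd17b6 (0.94).

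Hsd17b6, which oxidises androgen metabolites and retinol, was lower by very different amounts in the PiZ mice. Its bright probe set, 1449385_at, read 11.08, 10.92 and 10.99 in wild-type and 9.99, 8.9 and 7.59 in PiZ replicates 1, 2 and 3. The wild-type arrays agreed within 0.16, whereas the PiZ arrays spread over 2.40, a 5.27-fold range, and the remaining level was 49.5%, 23.4% and 9.40%. The mean difference was -2.17, from 11 ± 0.079 to 8.83 ± 1.2. PiZ replicate 1 alone differed by -1.01 from wild-type, and the difference was -1.09 once the 3′ to 5′ gap (mean of Gapdh and Actb) entered the model. Its other probe set, 1449386_at, was near the lower quartile and went the other way, with 4.40, 4.61 and 4.78 in wild-type and 4.83, 5.0 and 5.66 in PiZ. These groups did not overlap either, though by a narrow margin, and the order of the PiZ arrays was reversed. The low level of Hsd17b6 thus rests on the bright probe set.

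Hao2, the peroxisomal oxidase, showed the same order of PiZ arrays at a lower level. It read 7.83, 7.80 and 8.27 in wild-type and 6.38, 6.12 and 4.79 in PiZ, so that 33.4%, 27.8% and 11% remained. The means were 7.97 ± 0.26 and 5.76 ± 0.86, a difference of -2.20 or 4.61-fold. PiZ replicate 3 came close to the lower quartile, and with the 10th percentile subtracted its remaining level was 6.58%. Both Hao2 and Hsd17b6 were lowest in PiZ replicate 3 and highest in PiZ replicate 1, and of all members their 6 readings lay closest together (root mean square distance 0.31 on the log2 scale after subtracting each gene's wild-type mean).

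Clec2h was read by 3 probe sets, all of them lower in every PiZ array than in any wild-type array. The brightest, 1424673_at, read 8.34, 7.94 and 7.95 in wild-type and 4.63, 5.54 and 2.97 in PiZ, a difference of -3.70 or 13.0-fold, with 9.15%, 17.2% and 2.90% left. The PiZ values spread over 2.57 around the lower quartile, so their order is uncertain. With the 10th percentile subtracted, PiZ replicate 3 came to -1.47%, that is, no signal above this floor. The second probe set, 1431240_at, left 15.2%, 12.6% and 6.92% and differed by -3.19. The third, 1451438_s_at, whose suffix marks probes shared by several transcripts, went from 6.74, 6.33 and 6.59 to 5.60, 5.66 and 5.67, with 51.6% to 54.1% left. The direction was common to the 3 probe sets of Clec2h. The size was not, and since PiZ replicate 3 had no signal above the floor in the brightest, the fold of that probe set is uncertain.

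Mup3 kept more of its wild-type level than the other members on average, with 29.5% left. The bright probe set, 1427631_x_at, read 13.95, 14.11 and 13.68 in wild-type and 12.45, 12.26 and 11.75 in PiZ, a difference of -1.76 or 3.39-fold. The groups did not overlap, and 36.3%, 31.7% and 22.3% remained. The suffix of this probe set marks probes that can bind related transcripts, and major urinary protein genes are close copies of one another, so the reading may sum several of them. The other Mup3 probe set, 1427249_x_at, read 2.85 to 3.05 in wild-type and 2.41 to 2.48 in PiZ, below the lower quartile throughout, and adds no level. Mup3 ranked 55th among all genes by size of fall and was the only member lower by less than 4-fold.

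Phlda1 had an order of PiZ arrays unlike that of Hao2, Hsd17b6 and Mup3. It read 11.89, 12.80 and 12.23 in wild-type and 8.98, 9.84 and 9.87 in PiZ, so the lowest array was PiZ replicate 1, with 10% left against 18.1% and 18.5%. The means were 12.30 ± 0.46 and 9.56 ± 0.50, a difference of -2.74 or 6.68-fold. Its wild-type range of 0.91 was the widest of the 7 genes, and the groups stood 2.02 apart. PiZ replicate 1 alone differed by -3.32, and the difference was -3.45 once the 3′ to 5′ gap entered the model. Phlda1 was therefore lowest in the PiZ array whose Gapdh gap lay in the wild-type range.

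**Figure D2:**
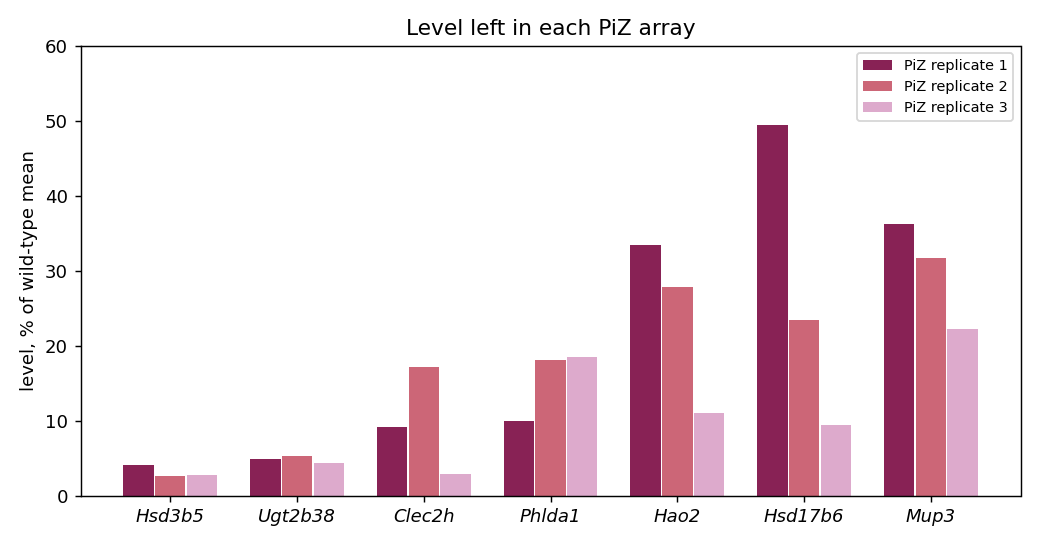
Level of each gene in each PiZ array as a percentage of the wild-type mean (mean of log2 values, brightest probe set), 1 bar per PiZ array. Hsd3b5 and Ugt2b38 keep 2.61% to 5.27% in all 3 arrays, whereas Hsd17b6 runs from 9.40% to 49.5%.

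Across the set, all 21 readings in PiZ were below 50% of the wild-type mean, and 9 of them were below 10%. All 7 members had PiZ arrays below all wild-type arrays, as did 19.9% of all genes tested, while 24.9% of genes had all PiZ arrays above. A fall of at least 4-fold was seen in 6 members and in 33 genes of the whole table (0.266%). These shares are what the choice of members fixes, and nothing is read from them. The lowest PiZ array was not the same in all members: PiZ replicate 3 was lowest in 5 of 7, PiZ replicate 2 in Hsd3b5 and PiZ replicate 1 in Phlda1. PiZ replicate 1 was highest in 4, and PiZ replicate 2 in Ugt2b38 and Clec2h. The second probe set of Clec2h was instead highest in PiZ replicate 1. Part of this variation in order lies within the spread of replicates. PiZ replicates 2 and 3 of Hsd3b5 read 7.17 and 7.22, and the PiZ range of Phlda1 (0.89) did not exceed its wild-type range (0.91). Of the 11 probe sets, 10 were lower in PiZ with no overlap, and 1449386_at of Hsd17b6 was higher with no overlap.

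**Figure D3:**
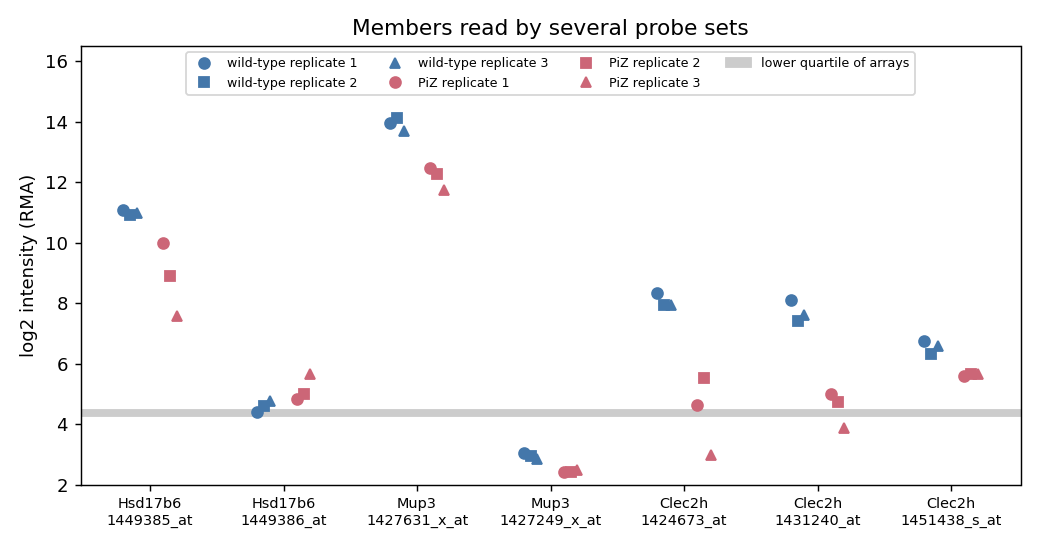
Log2 intensity (RMA) of each probe set of the 3 genes read by more than 1, in 3 wild-type arrays (blue) and 3 PiZ arrays (red), with the range of the arrays' lower quartiles as a grey band. The dim probe sets 1449386_at of Hsd17b6 and 1427249_x_at of Mup3 lie near or below the band, and the 3 probe sets of Clec2h share a direction and differ in size.

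The genes whose 6 array values lay closest to each member, by root mean square distance on the log2 scale, were named by rule. Hsd3b5 and Ugt2b38 were nearest to each other (0.52). Outside the 7 members, the nearest to Hsd3b5 were Hhex (1.60), Foxq1 (1.60) and Ak4 (1.74), and for Ugt2b38 they were Foxq1 (1.15), Hhex (1.18) and Klf10 (1.3). Mup3 had near matches in Cyp2c37 (0.10), Adh4 (0.10) and Car8 (0.13), which differed by -1.78, -1.79 and -1.78. Hsd17b6 was closest to Abca8a (0.29), Akr1c14 (0.40) and Slc10a1 (0.41), and Hao2 to F3 (0.21), Abca8a (0.24) and Nrep (0.26). Abca8a, an ABC transporter, deviated by -1.45, -2.17 and -2.86 in PiZ replicates 1, 2 and 3, the order of both. Phlda1 was closest to Cish (0.40), Socs3 (0.41) and Cnmd (0.42). Clec2h was closest to Ugt2b38 among the members (0.83), and to Serpina12 (1.00), Socs2 (1.01) and Ak4 (1.07) among other genes. With 6 arrays in 2 groups, this likeness mostly reflects the size of the group difference.

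The relatives of each member were then compared between PiZ and wild-type with limma, from lists that leave the 7 members out. Over all genes, 12.3% were called lower and 11.3% higher in PiZ at a Benjamini-Hochberg adjusted p below 0.05 (1525 and 1396 genes). Leaving out 1 array moved these counts to between 550 and 2778 lower and between 518 and 3397 higher, so the list counts below carry the range from the same 6 fits. The median difference of all genes was 0.08.

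Since Hsd3b5 had the largest fall of all genes, its measured relatives could only fall less, and nothing is read from that. Hsd3b3 fell by 1.29 (SE 0.29, limma adjusted p = 0.0197) and Hsd3b2 by 0.54 (SE 0.15, adjusted p = 0.0361), while Hsd3b1, the classical steroidogenic form, read 4.90 ± 0.18 and 5.09 ± 0.22, and the bile acid enzyme Hsd3b7 12.23 ± 0.29 and 11.65 ± 0.65. Of 4 measured family members 2 fell and 0 rose, with a median of -0.56. Without 1 array the number lower ran from 0 to 3. Hsd3b3 read 10.79, 10.79 and 10.82 in wild-type and 10.27, 9.07 and 9.20 in PiZ, so PiZ replicate 1 lay nearest to wild-type, as it did for Hsd3b5. The Hsd3b3 probe set, with the suffix _x_at, can bind related transcripts of this family.

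Ugt2b38 had the next largest fall, so its glucuronosyltransferase relatives could likewise only fall less. Ugt3a1 fell by 1.31 (SE 0.15, limma adjusted p = 0.00187), Ugt2b1 by 0.67 (SE 0.15), Ugt2a3 by 0.43 (SE 0.11) and Ugt2b5 by 0.38 (SE 0.10). Ugt2b1 read 13.17, 13.27 and 13.13 in wild-type and 12.78, 12.24 and 12.55 in PiZ. Of 8 measured glucuronosyltransferase genes 4 fell and 0 rose (median -0.52), and without 1 array 1 to 5 fell. Ugt2b37 (8.49 ± 0.19 and 7.86 ± 0.38), Ugt2b34 (12.36 ± 0.041 and 12.54 ± 0.066), Ugt3a2 (11.73 ± 0.062 and 10.41 ± 0.95) and Ugt8a (3.64 ± 0.16 and 4.07 ± 0.20) did not pass, Ugt3a2 with 11.50 in PiZ replicate 1 against 9.77 and 9.95 in the others.

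The wider Hsd17b and Rdh family of short-chain dehydrogenases moved mostly in the direction of Hsd17b6. Of 21 measured, 11 fell and 2 rose, with a median of -0.42. Rdh14 fell by 1.15 (SE 0.29, limma adjusted p = 0.0269), the estradiol-inactivating Hsd17b2 by 1.05 (SE 0.18), the ketone body enzyme Bdh1 by 0.99 (SE 0.17) and the peroxisomal Hsd17b4 by 0.93 (SE 0.25). A second probe set read 0.39 for Rdh14 and -0.03 for Hsd17b4. Rdh16, a neighbour of Hsd17b6 on the chromosome, rose by 0.71 (SE 0.11, adjusted p = 0.0057) and the dim testis-type Hsd17b3 by 0.43 (SE 0.11), both named here after their values were seen. The number lower was 3 without wild-type replicate 1, 2 or 3, 5 without PiZ replicate 2 or 3 and 13 without PiZ replicate 1, and 4 with the 3′ to 5′ gap in the model. The list's median was -0.32 in PiZ replicate 1, -0.42 in replicate 2 and -0.49 in replicate 3.

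Steroid metabolism outside these families was divided. The reductase Akr1c14 fell by 2.10 (SE 0.33, limma adjusted p = 0.00584), from 11.91 ± 0.18 to 9.81 ± 0.74. Hsd11b1, which regenerates active glucocorticoid, fell by 1.35 (SE 0.26), Akr1c20 by 0.90 (SE 0.20) and the oxysterol hydroxylase Cyp7b1 by 0.70 (SE 0.17), and the 21-hydroxylase Cyp21a1 rose by 0.53 (SE 0.11), named after its value was seen. Of 14 measured genes 4 fell and 1 rose, with a median of 0.08. Without 1 array 1 to 5 fell and 0 to 3 rose.

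Among the peroxisomal relatives of Hao2, its liver paralogue Hao1 (glycolate oxidase) fell as well. Hao1 read 12.53, 12.44 and 12.41 in wild-type and 11.42, 10.86 and 10.88 in PiZ, so that it fell by 1.41 (SE 0.17, limma adjusted p = 0.00219). Pipox, which oxidises pipecolic acid and sarcosine, fell by 1.55 (SE 0.20), urate oxidase Uox fell by 1.04 (SE 0.28) and the racemase Amacr by 0.83 (SE 0.14). Of 19 measured genes 6 fell and 1, the thiolase Acaa1a, rose by 0.63 (SE 0.17; named after its value was seen), with a median of -0.36. Without 1 array 3 to 12 fell. Hao1, Pipox and Amacr were called in all 13 alternative fits that were run for single genes, and Uox in 6. The catalase gene Cat, which breaks down the peroxide these oxidases make, read 13.48 ± 0.068 and 13.37 ± 0.24 and did not pass. Another Cat probe set of like brightness read 13.58, 13.53 and 13.48 in wild-type and 13.08, 13.1 and 13.08 in PiZ. It differed by -0.45 (limma adjusted p = 0.021 with all probe sets as features), so the result for Cat depends on the probe set.

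Few relatives of Mup3, Clec2h and Phlda1 could be read. Mup5, the 1 measured gene of the 20 in the list of other major urinary proteins, read 8.17, 8.09 and 7.93 in wild-type and 7.97, 7.95 and 7.96 in PiZ. Its difference, -0.10 with an SE of 0.11, did not pass (limma adjusted p = 0.506). Clec2d, the brightest measured gene of the Clec2 and Klrb1 families in liver, fell by 0.76 (SE 0.18, adjusted p = 0.0228), and the other 5 measured did not pass and read below 4. Phlda2 went against Phlda1, with a rise by 0.78 (SE 0.13, adjusted p = 0.00766) from 4.31, 4.70 and 4.57 to 5.41, 5.24 and 5.27. Phlda3, a p53 target, read 6.62 ± 0.14 and 7.03 ± 0.26 and did not pass.

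Genes known for higher expression in male liver were often lower in PiZ. Slco1a1, an organic anion transporter, fell by 2.18 (SE 0.12, limma adjusted p = 7.15e-05), Socs2 fell by 2.58 (SE 0.52), the acyltransferase-like Keg1 fell by 1.37 (SE 0.24) and the peroxisomal hydrolase Nudt7 by 1.06 (SE 0.18). A second Nudt7 probe set differed by -0.28 and did not pass (limma adjusted p = 0.252 with all probe sets as features). Slco1a1 read 12.26, 12.16 and 12.20 in wild-type and 9.98, 9.92 and 10.20 in PiZ, an even fall like those of Hsd3b5 and Ugt2b38. Of 18 measured, 10 (55.6%) fell and 0 rose, against 12.3% and 11.3% of all genes, and the median was -0.61. The 10 include Ugt2b1, Hsd3b2 and Cyp7b1, which are also in the lists above. The number that fell was 3, 4 and 4 without wild-type replicate 1, 2 or 3, 6 without PiZ replicate 2, 4 without PiZ replicate 3 and 11 without PiZ replicate 1. It was 6 with PiZ replicate 1 alone and 5 with the 3′ to 5′ gap in the model. Other male-pattern genes did not pass: Cyp4a12a read 10.88 ± 0.11 and 10.74 ± 0.28, Elovl3 ran from 8.80 to 11.22 in wild-type and from 8.31 to 10.01 in PiZ, and Gstp1 read 14.23 ± 0.016 and 14.32 ± 0.063.

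Of 14 measured genes known for higher expression in female liver, 3 rose and 1 fell, with a median of 0.31. All 3 that rose belong to the Cyp2b cytochromes. Cyp2b9 rose by 3.15 (SE 0.21, limma adjusted p = 0.000191), from 7.32, 7.54 and 7.90 to 11.13, 10.57 and 10.51, Cyp2b13 by 1.87 (SE 0.29) and Cyp2b10 by 1.63 (SE 0.29). The peroxisomal transporter Abcd2 fell by 1.57 (SE 0.18). Cyp3a44 (5.89 ± 0.016 and 6.17 ± 0.22), Cyp3a16 and Sult3a1 read 6.17 or less on average in both groups and did not pass. Without 1 array 3 to 6 rose. The sex of the mice was checked on sex-chromosome transcripts, since the labels do not give it. Xist, expressed from the inactive X chromosome, read 5.43, 5.51 and 5.26 in wild-type and 5.44, 6.05 and 5.53 in PiZ. The Y-linked Eif2s3y read 9.17, 9.42 and 8.79 against 8.99, 8.77 and 8.92, and Uty 6.84, 6.69 and 6.63 against 6.61, 6.67 and 6.66. These ranges overlapped in all 3 genes. Eif2s3y read far above the lower quartile (4.27 to 4.46) in all 6 arrays, so Y-linked signal was present in every animal of both groups. Kdm5d, also on the Y chromosome, fell by 0.88 (SE 0.14, adjusted p = 0.00645). Its other probe sets were dim, and 1 of them differed by 0.15.

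Several genes of the growth hormone axis fell, while its transcription factor did not pass the test. Ghr fell by 1.06 (SE 0.17, limma adjusted p = 0.00581), and the insulin-like growth factor gene Igf1 by 1.07 (SE 0.16). The feedback inhibitors Socs2 (-2.58, SE 0.52), Cish (-2.3, SE 0.22) and Socs3 (-2.28, SE 0.36) fell, and the binding protein gene Igfbp1 rose by 2.92 (SE 0.58). Igfbp1 varied widely in wild-type, with 12.20, 10.55 and 9.49, against 13.88, 13.61 and 13.51 in PiZ. Socs2 read 9.86, 10.08 and 9.61 in wild-type and 6.41, 8.63 and 6.79 in PiZ, so PiZ replicate 2 kept more than the others. Stat5b read 8.81, 8.57 and 8.26 in wild-type and 8.53, 8.35 and 8.43 in PiZ. Its difference was -0.11 (SE 0.15, limma adjusted p = 0.606), ran from -0.25 to 0.16 in the 13 alternative fits and was 0.44 in a dimmer probe set. The repressor Bcl6, itself higher in males, read 8.72 ± 0.48 and 9.37 ± 0.041 (adjusted p = 0.0705). Hnf4a differed by -0.12 (SE 0.11), and from -0.56 to 0.01 in the alternative fits. Its next brightest probe set read 10.33, 10.37 and 10.15 in wild-type and 9.61, 9.76 and 9.56 in PiZ. That probe set differed by -0.64 (limma adjusted p = 0.012 with all probe sets as features). The dimmer ones differed by -0.49 and -0.05 and did not pass, so the result for Hnf4a depends on the probe set. Of 19 measured genes 9 fell and 2 rose, with a median of -0.20, and without 1 array 7 to 9 fell.

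**Figure D4:**
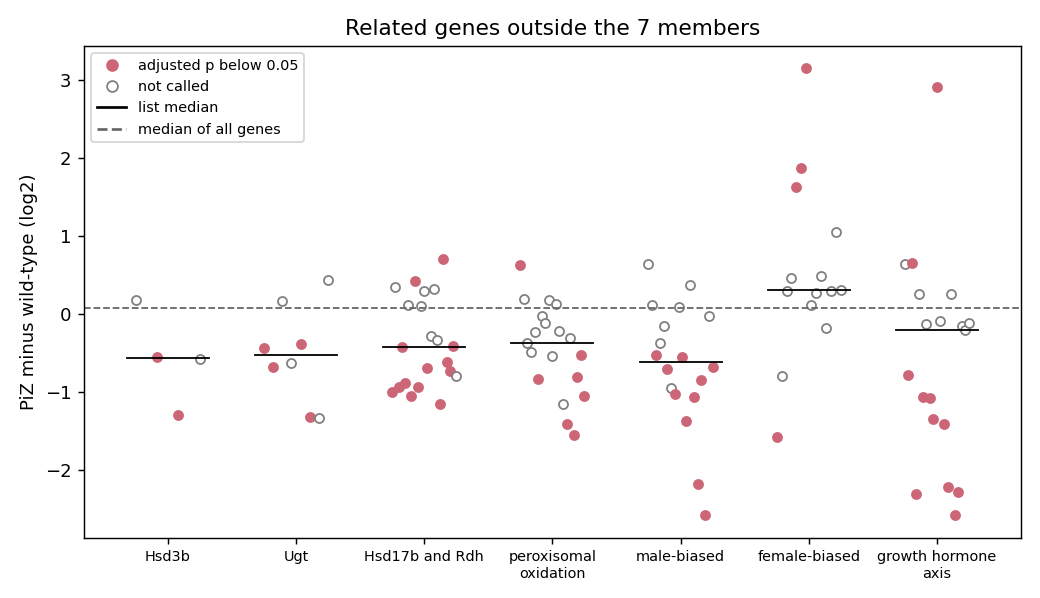
PiZ minus wild-type difference (log2) of each measured gene in 7 lists of relatives, none of which holds a member, with filled points for limma adjusted p below 0.05, a black line at each list's median and a dashed line at the median of all genes (0.08). The male-biased list has a median of -0.61 and the female-biased list one of 0.31.

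The chromosomal neighbours of the members were mostly not called, and more of those that were called fell than rose. For each member, the 5 nearest measured protein-coding genes on either side in the RefSeq gene order of GRCm38.p6 were taken, a rule set after the values were seen. Of the 63 different neighbours 17 (27.0%) were called lower and 4 higher by limma, against 12.3% and 11.3% of all genes, their median difference was 0.04, and the lowest, of Hsd3b3, was -1.29. The neighbours include family clusters, so these genes are not independent of the lists above. Hsd3b5 and Hao2 lie in one cluster on chromosome 3, with 4 protein-coding genes, all of the Hsd3b family, between them. Of the 3 measured there, Hsd3b3 and Hsd3b2 fell and Hsd3b1 did not pass. Hsd3b1 read only 4.79 to 5.10 in wild-type, near the lower quartile of the arrays, so a fall could hardly be seen. Around Ugt2b38 on chromosome 5, the falls of Ugt2a3, Ugt2b5 and Ugt2b1 were at most 0.67, and the sulfotransferase Sult1d1 fell by 0.54 (SE 0.16). Next to the Mup cluster on chromosome 4, the zinc finger gene Zfp37, named after its value was seen, rose by 3.51 (SE 0.22, adjusted p = 0.000162), from 4.02 ± 0.13 to 7.53 ± 0.47. Around Phlda1 on chromosome 10, Atxn7l3b fell by 0.50 (SE 0.11) and Csrp2 and Glipr1 rose by 0.66 (SE 0.14) and 0.63 (SE 0.15).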

How the data were processed

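RNA from 6 livers was measured on 1 array each. The authors deposited log2 intensities, made with affy and RMA per the submitters' processing notes. Versions and filters: not given in the sources used here. Of 22690 probe sets 64 were controls, 20380 named exactly 1 gene in the platform annotation, 691 several and 1555 none. All value columns were matched to samples.

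The brightest probe set, by its mean across the 6 arrays, stood for each gene. A remaining level is 2 to the power of a PiZ value minus the wild-type mean of log2 values, in percent. PiZ was compared with wild-type by lmFit and eBayes of limma 3.58.1 under R 4.3.3 (no covariate, two-sided, Benjamini-Hochberg over 12393 genes, threshold 0.05), and the fit was checked on simulated data. Tables and figures used Python 3.11.15, pandas 2.3.3 and matplotlib 3.10.9. Members, lists and tests were chosen with earlier results of these data known. Named genes are the members, their 3 nearest genes, in each list the 4 largest called differences (without calls, the 2 lowest p), and Stat5b, Ghr, Socs2, Igf1, Bcl6, Hnf4a, Hao1, Alb, Ttr and the sex-chromosome genes; Ddx3y is not analysed here. Relatives given as not passing, and motifs and neighbours, were chosen after values were seen. Alternatives changed the probe set rule, the dim-gene filter, the scaling, the variance model and the arrays used. The labels call the samples biological replicates.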

Additional observations from a re-analysis of the deposited data

How the results depend on the processing

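Over the alternatives, the difference of each member kept its sign. Of 98 alternative values, 90 moved by less than the spread between replicates and 8 by more, among them Hsd17b6 (-0.80) and Mup3 (-1.14) with the median of their probe sets. The replicate spread is wide for Hsd17b6 and Clec2h, so this limit is loose for them. Values of -2.98 and -1.56 for Hsd17b6, and of -4.45 and -2.91 for Clec2h, lay within it. The 14 remaining levels recomputed with an arithmetic mean or a background floor moved by less than the SD of the gene's 3 PiZ percentages. That SD is wide for Clec2h, whose mean remaining level went from 9.76% to 5.71% with the floor. The counts of genes called lower (1525) and higher (1396) came to 947 and 867 with the 3′ to 5′ gap in the model, and to 2879 and 3641 with array weights. Centring on reference genes moved the median of all genes from 0.078 to -0.031 and gave 2197 lower and 779 higher, so that 26.2% of called genes were higher, against 47.8%; the cause was not tested. With all probe sets as features 2311 were lower. Leaving out 1 array gave 550 to 2778 lower and 518 to 3397 higher genes, the most without PiZ replicate 1, and 3 to 11 male-biased genes lower. The male-biased count of 10 was 5 with that gap in the model and 6 with PiZ replicate 1 alone. The labels do not say whether equal replicate numbers pair the samples. Same-numbered arrays correlated at 0.264, 0.285 and -0.034 in their deviations from the group mean, and differently numbered ones at -0.365 to 0.251. With 3 arrays per group, these values cannot show whether the samples were paired. With the replicate number as a block 1738 genes were lower and 1487 higher, and 9 male-biased genes were lower. Dim values, such as that of the brightest Clec2h probe set in PiZ replicate 3, cannot be told from background.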
